A study of Mus musculus with 72 samples.

Results

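The genes described here encode the nuclear part of the oxidative phosphorylation machinery, measured in the mouse hippocampus across a day and after contextual fear conditioning. They were taken as the probe sets whose single gene symbol starts with Nduf, Sdha, Sdhb, Sdhc, Sdhd, Uqcr, Cox4, Cox5, Cox6, Cox7, Cox8 or Atp5. The rule found 126 probe sets among the 35556 of the array, and keeping for each symbol the probe set with the highest mean left 92 genes of the 18820 with a symbol of their own. Complex I held 41 of them, complex II 8, complex III 7, complex IV 19 and complex V 17. Cox7c, Ndufa13, Uqcrc2 and Ndufs5-ps fit the name rule but lay only on probe sets that carry several symbols, so these 4 were not analysed here.

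All mice were C57BL/6J males, 2 months old, and each of the 72 arrays held RNA from the whole hippocampus of 1 mouse. Training started at Zeitgeber time (ZT, hours after lights on) 3 and gave each mouse 1 foot shock of 2 s at 1.5 mA, ending 2.5 min after it entered a chamber. The trained groups FC30, FC4, FC12 and FC24 are named for the time of dissection, at 30 min, 4 h, 12 h and 24 h after training. RT30 mice went back into the chamber a day later, at 24 h, for a test of 5 min and were dissected 30 min after it. Handled mice that were never trained were taken at the clock times of the first 3 trained groups and make up CC30, CC4 (ZT 7) and CC12 (ZT 15, in the dark phase). Each of the 8 groups held 9 mice from separate runs of the experiment. The tissue is a mixture of cell types, in which fewer cells of a type and less RNA per cell cannot be told apart.

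Oxidative phosphorylation takes place in the inner mitochondrial membrane. Complexes I to IV pass electrons from NADH and succinate to oxygen and, except for complex II, pump protons, and complex V, the ATP synthase, uses the proton gradient to make ATP. Neurons depend on this ATP for ion pumping and synaptic transmission. Most subunits are encoded in the nucleus, and assembly factors help to build the complexes without staying in them.

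The 5 markers of neurons that were matched lay above the array median in every group, with a mean log2 signal per mouse of 11.77 to 11.90. Of the 92 genes, 84 had a mean log2 signal above the median of all probe sets, which was 5.84, and 40 lay in the top 10% of probe sets. The signal of a probe set also depends on its probes, so levels are compared here only within a gene. Of the 8 genes below the median, 7 are isoforms known from other tissues or states, such as Cox4i2, Cox7a1 and Cox8b, and the other is the assembly factor Sdhaf4. On 6 arrays a principal component score stood far from the rest of its group, and the counts below are also given without them where they change.

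The members were first set against all other transcripts by how far their means spread over the 8 groups. The largest minus the smallest of a gene's group means had a median of 0.079 on the log2 scale over the 92 genes, beside 0.12 over all probe sets and 0.11 over all genes. It was above 0.2 for 3 of the 92, which are Uqcr11 (0.25), Sdhaf4 (0.21) and Ndufa4l2 (0.20), or 3.26%, beside 8.55% of all genes. The spread between mice of one group was also smaller, with a median SD of 0.082 for the members and 0.11 for all probe sets. Relative to that SD the median range of group means was 0.93 for the members and 1.06 for all probe sets. FC30 held the lowest of the 8 means for 25 genes and FC12 for 19, and the highest mean lay in FC4 for 22, in CC12 for 21, in CC4 for 20 and in FC12 for 1 gene. The same counts were not made over all probe sets, so they do not show whether other transcripts differ from the members. No test was made of these counts.

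Of 10 subunits chosen to represent the complexes, those of the F1 part of the ATP synthase had the narrowest ranges of group means. Atp5b, the catalytic beta subunit of the ATP synthase, had group means from 12.23 to 12.25, and its alpha partner Atp5a1 from 11.12 to 11.15. Sdha, the flavin subunit of succinate dehydrogenase, ranged from 10.65 to 10.69. These ranges are smaller than or close to the SD between mice of one group, which was 0.032 for Atp5b, 0.037 for Atp5a1 and 0.041 for Sdha.

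The iron-sulfur subunit Sdhb varied more, with group means from 9.47 in RT30 to 9.57 in CC4 and an SD within groups of 0.11. In complex I, the iron-sulfur subunit Ndufs1 had means of 8.96 to 9.02 and Ndufv1, which binds NADH, of 9.75 to 9.82. In complex III, Uqcrc1, counted here as an accessory subunit, had means of 10.05 to 10.13, and the Rieske iron-sulfur protein Uqcrfs1 of 7.06 to 7.17. In complex IV, the accessory subunit Cox4i1 had means of 9.79 to 9.85 and the accessory subunit Cox5a of 7.96 to 8.03. None of these 10 subunits passed the threshold in any of the 12 pairwise comparisons or in the fit of time and training.

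Isoforms known from muscle or other tissues were also measured. The group means of Cox6a2 ran from 7.16 to 7.24, of Cox7a1 from 5.21 to 5.32, of Cox4i2 from 5.22 to 5.32 and of Cox8b from 4.42 to 4.53. Their SDs within groups, 0.12 to 0.17, were larger than these ranges. Neither they nor the other 4 isoforms of complex IV were called in a comparison.

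**Figure D1:**
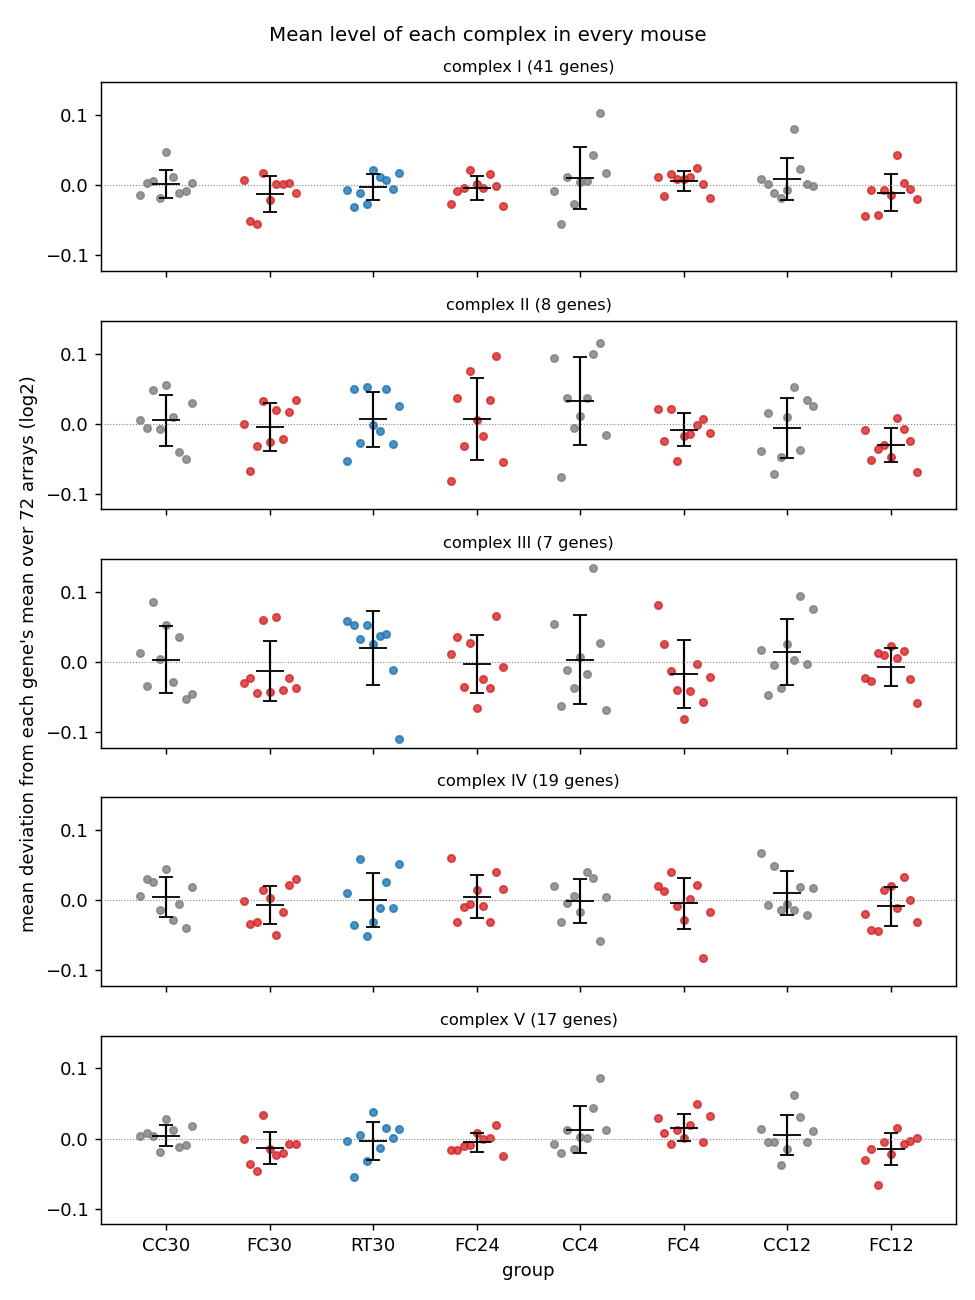
Mean deviation of the genes of each complex from their own mean over 72 arrays (vertical axis, log2) in every mouse of the 8 groups (horizontal axis). Points are mice, grey untrained, red trained and blue after retrieval, and bars give the mean and SD of 9 mice. The groups overlap in every complex, and single mice lie between -0.11 and 0.13.

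Averaged over the 92 genes, a mouse lay between -0.05 and 0.06 of the overall mean on the log2 scale. The lowest, median and highest mouse were -0.02, 0.00 and 0.04 in CC30, -0.05, -0.01 and 0.02 in FC30, -0.05, 0.01 and 0.06 in CC4, and -0.04, -0.01 and 0.02 in FC12. All of these groups overlapped. Complex I means of the groups ran from -0.01 in FC30 to 0.01 in CC4, and complex V means from -0.01 in FC12 to 0.02 in FC4. Among group means, complex II was highest in CC4, at 0.03 ± 0.06 (SD, n = 9), and lowest in FC12, at -0.03 ± 0.02 (SD, n = 9), and mice of these groups overlapped. These means describe the genes together and were not tested.

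Time of day was first compared between untrained mice. From CC30 to CC4 no member passed an adjusted p of 0.1 in limma (unadjusted p under 0.05 for 1 higher and 1 lower gene), where 0.0731% of all probe sets did. From CC30 to CC12, 1 of 92 genes fell and none rose, where 3.5% of all probe sets were called and 1.44% were called lower. From CC4 to CC12 again 1 fell and none rose, where 5.01% were called and 2.47% called lower. Among genes with 1 probe set kept, the share called was 4.54% and 6.68%. The median log2 fold change of the members was 0.0089 for CC4 against CC30, 0.0032 for CC12 against CC30 and 0.0008 for CC12 against CC4, and over all probe sets it was 0.0020, -0.0032 and -0.0039. At an unadjusted p under 0.05, 3 members differed between CC12 and CC30 and 2 between CC12 and CC4.

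The gene that fell between CC4 and CC12 was Sdhaf1, an assembly factor of complex II that helps to insert the iron-sulfur clusters of SDHB. The lowest, median and highest of its log2 values were 6.24, 6.30 and 6.42 in CC30, 6.34, 6.42 and 6.54 in CC4, and 6.06, 6.25 and 6.40 in CC12. In trained mice they were 6.19, 6.31 and 6.37 in FC30, 6.25, 6.38 and 6.54 in FC4, 6.17, 6.26 and 6.37 in FC12 and 6.26, 6.36 and 6.53 in FC24, with 6.20, 6.36 and 6.49 in RT30. The medians were highest in the 4 h groups and lowest in the 12 h groups, and CC12 overlapped with CC4. Between the CC4 and CC12 means the log2 signal fell by 0.19 (SE 0.044, limma adjusted p = 0.0198), and 9 of 9 CC12 mice lay below the CC4 mean. In FC12 against FC4 the difference was -0.12 (adjusted p = 0.185). A second, dimmer probe set of Sdhaf1 gave 0.05 in CC12 against CC4 (adjusted p = 0.87), so the call rests on 1 of its probe sets. It was also lost with local false discovery rates on z-scores (0.213) but not on t statistics (0.0371). A fit with the replicate number as a block lost it too, as given with the dependence on processing.

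Sdhaf3, a second assembly factor of complex II with a related role, fell from CC30 to CC12. Its lowest, median and highest values were 7.84, 7.91 and 7.98 in CC30, 7.66, 7.86 and 8.01 in CC4, and 7.70, 7.79 and 7.90 in CC12. In trained mice the same values were 7.76, 7.93 and 7.98 in FC30, 7.75, 7.85 and 7.91 in FC4 and 7.71, 7.80 and 7.89 in FC12. CC30 and FC30 were high and both 12 h groups low, with overlap between them. Between the CC30 and CC12 means the log2 signal fell by 0.12 (SE 0.031, limma adjusted p = 0.0588), with 9 of 9 CC12 mice below the CC30 mean. In FC24 the values were 7.64, 7.89 and 7.98, and in RT30 7.77, 7.85 and 7.93. These 2 groups were taken close to the clock time of CC30. Their means differed from that of CC30 by -0.05 in FC24 and -0.06 in RT30, and neither difference was called. The call was lost with local false discovery rates on z-scores (0.687) and on t statistics (0.222), and with the replicate number as a block.

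**Figure D2:**
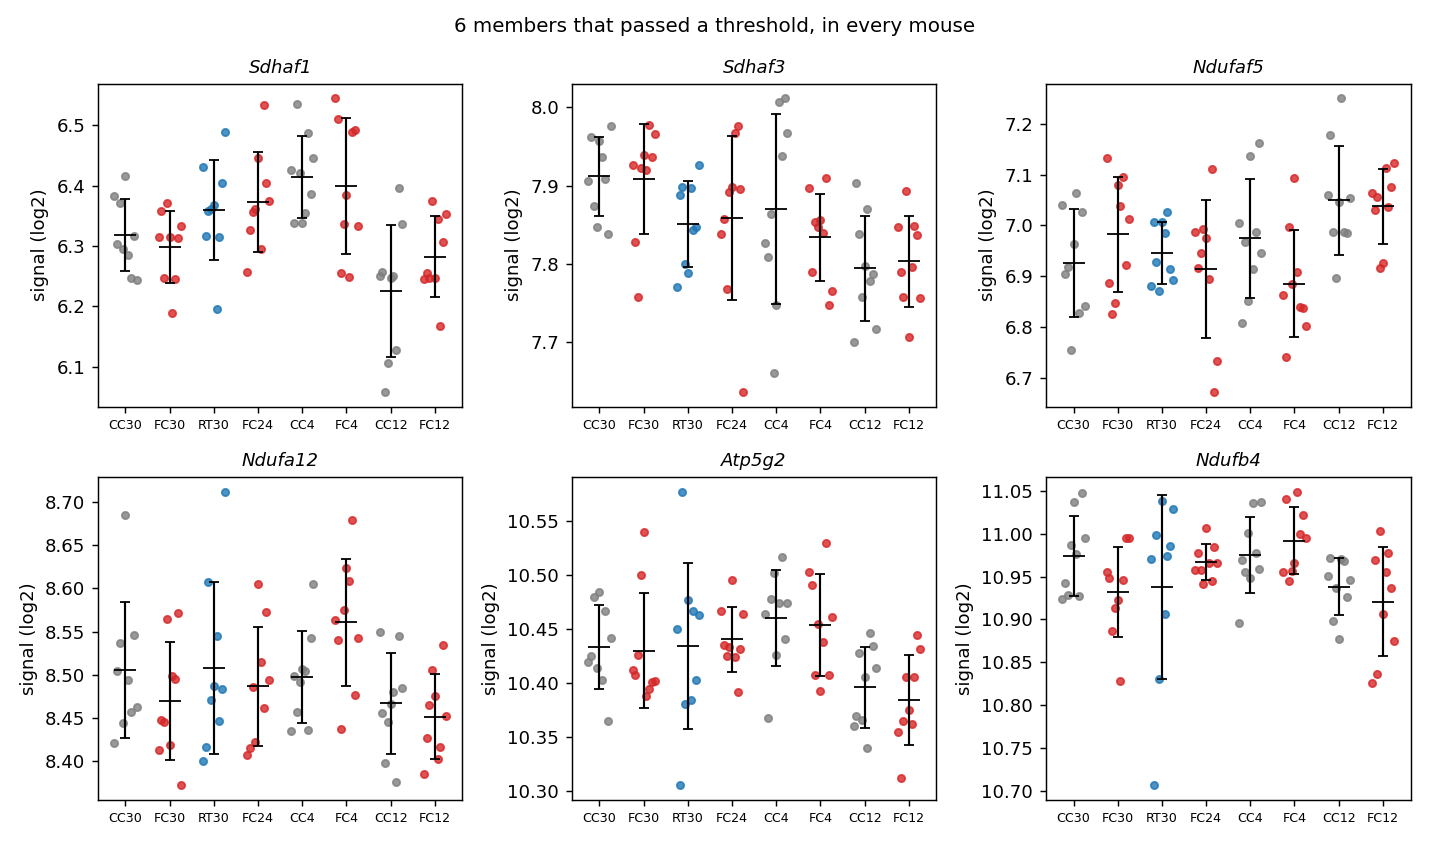
Log2 signal (vertical axis) of 6 genes that passed a threshold, in every mouse of the 8 groups (horizontal axis). Points are mice, grey untrained, red trained and blue after retrieval, and bars give the mean and SD of 9 mice. Sdhaf1 is highest in CC4 and FC4 and lowest in CC12 and FC12, Ndufaf5 is highest in the 12 h groups, and no pair of groups is separated.

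Comparisons among trained mice combine time of day with time since training, which cannot be told apart there. Between FC4 and FC12, 1 of the 92 genes rose and 1 fell, where 4.22% of all probe sets and 5.49% of genes were called, 2.51% of probe sets higher and 1.71% lower. Ndufaf5 encodes a hydroxylase that modifies the complex I subunit NDUFS7 during assembly. Its lowest, median and highest values were 6.74, 6.86 and 7.09 in FC4 and 6.92, 7.06 and 7.12 in FC12. It rose by 0.15 (SE 0.043, limma adjusted p = 0.0715), with 9 of 9 FC12 mice above the FC4 mean. In untrained mice CC12 was also the highest group, at 6.90, 7.05 and 7.25, against 6.81, 6.97 and 7.16 in CC4 and 6.75, 6.92 and 7.06 in CC30. The differences of CC12 from CC30 (0.12, adjusted p = 0.267) and from CC4 (0.07, adjusted p = 0.619) did not pass. The same values were 6.83, 7.01 and 7.13 in FC30, 6.67, 6.95 and 7.11 in FC24 and 6.87, 6.93 and 7.03 in RT30, so single mice of FC30 and FC24 reached the level of the 12 h groups.

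Ndufa12, an accessory subunit of complex I, was the gene that fell between FC4 and FC12. Its values were 8.44, 8.56 and 8.68 in FC4 and 8.38, 8.45 and 8.54 in FC12, a fall of 0.11 on the log2 scale (SE 0.032, limma adjusted p = 0.0857), with 9 of 9 FC12 mice below the FC4 mean and the groups overlapping. Untrained mice gave 8.43, 8.50 and 8.60 in CC4 and 8.38, 8.47 and 8.55 in CC12, a difference of -0.03 (adjusted p = 0.774). In the fit of time and training given below, neither the interaction (limma adjusted p = 0.85) nor time of day (0.101) was called for Ndufa12. Without the 6 arrays that stood apart, Ndufaf5 alone was called in FC12 against FC4, and Ndufa12 had an adjusted p of 0.117. With no component subtracted neither passed (adjusted p = 0.101 for Ndufaf5 and 0.107 for Ndufa12), and neither did with local false discovery rates of either form. The replicate number as a block also left neither called.

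Against FC24, taken close to the clock time of CC30, no member was called in FC12 (limma, unadjusted p under 0.05 for 2 higher and 4 lower genes), where 3.19% of all probe sets were. Ndufb5, an accessory subunit of complex I, came closest at -0.07 (adjusted p = 0.131) and passed in 6 of the other settings tried, given with the dependence on processing. In FC4 against FC24 no member was called (unadjusted p under 0.05 for 1 gene, background 0.112%).

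Training was compared with untrained mice of the same time of day. In none of these comparisons was a member called by limma, by the pairwise test that the study used, or by either form of local false discovery rate. The background of called probe sets was 0.256% for FC30 against CC30, 0.278% for RT30 against CC30, and 0% for FC24 against CC30, FC4 against CC4 and FC12 against CC12. Unadjusted p under 0.05 was reached by 2 members for FC30, 0 for RT30, 1 for FC24, 5 for FC4 and 3 for FC12. FC30, RT30 and FC24 share the CC30 mice. In RT30 against FC24, which contrasts retrieval with trained mice that were not tested again, no member was called either (unadjusted p under 0.05 for 1 gene, background 0.152%).

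The 95% intervals give a range for the size of a change in 1 gene and 1 comparison. They were not adjusted for the number of genes or comparisons. For 83 of the 92 genes the 95% interval of the log2 fold change lay within ±0.2, or 1.15-fold, in FC30 against CC30. The same held for 87 in RT30, 88 in FC24, 82 in FC4 and 88 in FC12 against their controls. The lowest bound of all 5 comparisons was -0.33 in FC4 against CC4 and the highest 0.25 in FC30 against CC30. In these 5 comparisons the median SE of a member's log2 fold change was 0.035 to 0.040, beside 0.049 to 0.054 for all probe sets.

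The members nearest to the threshold in these comparisons were small in effect. Ndufs5, an accessory subunit of complex I, had values of 7.15 to 7.47 in CC30 and 6.88 to 7.37 in FC30, a difference of -0.15 (adjusted p = 0.606). Cox6a1, a subunit of complex IV, differed by -0.09 between the same groups (adjusted p = 0.606). Cox6b2, a testis isoform of complex IV with a signal below the array median, had values of 4.80 to 5.11 in CC4 and 4.62 to 4.93 in FC4, a difference of -0.16 (adjusted p = 0.922).

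In FC12 against CC12, Cox6b1 differed by -0.10 and Ndufb5 by -0.06 (both adjusted p = 1). Ndufs6, an accessory subunit of complex I, differed by -0.14 in FC24 against CC30 (adjusted p = 1) and by 0.15 in RT30 against FC24 (adjusted p = 0.7). Cox7a1 had the next smallest p-value in FC24 against CC30, with a difference of 0.08. In RT30 against CC30 the smallest p-values were those of Sdhaf3 and Cox7a1, and no member had an unadjusted p under 0.05 (limma). Ndufb7, an accessory subunit of complex I, was lower by 0.11 in FC4 than in CC4. Each of these pairs of groups overlapped.

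More members lay below than above their controls in each of the 5 comparisons, by the most in FC30 and FC12. In FC30 against CC30, 68 of the 92 fold changes were below 0 (73.9%), beside 51.3% of all probe sets, with a median of -0.016. In FC12 against CC12, 72 were below 0 (78.3%), beside 50.01% of all probe sets, with a median of -0.015. In RT30, FC24 and FC4, 51 of 92 were below 0 (55.4%), beside 51.8%, 53.4% and 55.9% of all probe sets. Genes of one mouse are not independent, so these counts carry no test.

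In FC30 against CC30, complex I had 32 of 41 genes below 0, complex II 6 of 8, complex III 4 of 7, complex IV 13 of 19 and complex V 13 of 17. In FC12 against CC12, complex V had 15 of 17 below 0 and complex I 32 of 41. With no component subtracted, 69 and 73 of the 92 lay below 0. Markers of choroid plexus, a tissue next to the hippocampus, differed between the same groups without passing the threshold, and their part in the counts was not tested. All 5 were higher in FC30 than in CC30 and all 5 lower in FC12 than in CC12, with median log2 fold changes of 0.24 and -0.24. Their mean signal per mouse ran from 5.79 to 7.10 in CC30, 5.99 to 7.22 in FC30, 5.94 to 7.77 in CC12 and 5.52 to 7.22 in FC12. The median mouse was at 6.02, 6.56, 6.15 and 6.21 in these groups, so it was not lower in FC12 than in CC12. Of the 5 markers, 2 lay above the array median. By the median mouse, markers of neurons, pyramidal cells, interneurons, astrocytes, oligodendrocytes, microglia and endothelium were lower in FC30 than in CC30. Those of dentate granule cells, meninges and blood were higher. In FC12 against CC12, neurons, pyramidal cells, astrocytes, meninges and blood were lower. Dentate granule cells, interneurons, oligodendrocytes, microglia and endothelium were higher. The part of these markers was not tested either.

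No member's groups were apart without overlap in any of the 12 comparisons. The share of all probe sets whose groups were apart was 0.0478% for CC4 against CC30, 0.349% for CC12 against CC30 and 0.655% for CC12 against CC4. For training and retrieval it was 0.0759% for FC30, 0.0816% for RT30 and 0.00281% for FC24 against CC30, 0.00844% for FC4 against CC4 and 0% for FC12 against CC12. Among trained mice it was 0.419% for FC12 against FC4, 0.43% for FC12 against FC24, 0.0591% for FC4 against FC24 and 0.0759% for RT30 against FC24.

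**Figure D3:**
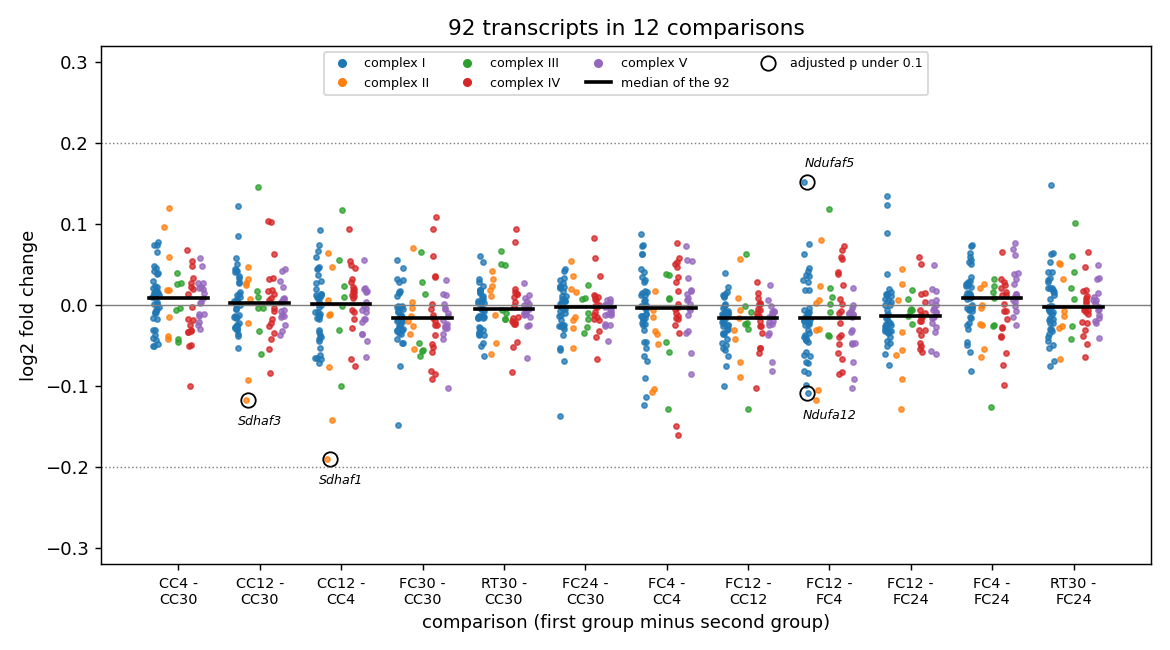
Log2 fold change (vertical axis) of the 92 genes in 12 comparisons (horizontal axis, first group minus second). Points are genes coloured by complex, black bars the median of the 92, rings genes with an adjusted p under 0.1, and dotted lines mark 0.2 and -0.2. All points lie between -0.19 and 0.15, and 4 are ringed.

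Time of day was then set against training in 1 fit over the 54 mice of the 3 times that hold both arms. Time of day was called for 5 of the 92 genes (5.43%), beside 13.4% of all probe sets and 18.3% of all genes. Training was called for 0 members, beside 0.00281% of all probe sets, and the interaction of time and training for 0, beside 0.0787% (limma, unadjusted p under 0.05 for 4 and 3 members). Unadjusted p for time was under 0.05 for 15 members (16.3%), beside 21.8% of all probe sets. Without the 6 arrays that stood apart, time was called for the same 5 genes and for Ndufaf3, an assembly factor of complex I.

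The 5 genes called for time of day were Sdhaf1 (adjusted p = 2.3e-04), Sdhaf3 (0.00473), Atp5g2 (0.00723), Ndufaf5 (0.0573) and Ndufb4 (0.0864). Ndufb4 was named after its values were seen. From 4 h to 12 h, over both arms, Sdhaf1 fell by 0.15 on the log2 scale, Atp5g2 fell by 0.07, Sdhaf3 and Ndufb4 each fell by 0.05, and Ndufaf5 differed by 0.11. Assembly factors supplied 3 of the 5, out of 11 measured (27.3%), and subunits and isoforms the other 2, out of 81 (2.47%). Of all genes 18.3% were called, and of the 34 assembly factors outside the name rule 20.6%. No test of these differences was made. The second probe set of Sdhaf1 did not pass (adjusted p = 0.96). Complex III and complex IV held none, and their smallest time p-values belonged to Uqcrc1 (adjusted p = 0.394) and Cox7a2l, a factor of respiratory supercomplexes (adjusted p = 0.137).

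Cell type markers were read in the same fit, where 18.3% of all genes were called for time of day. Time of day was called for 3 of 5 markers of dentate granule cells, 3 of 4 of endothelium, 2 of 5 of microglia and 1 each of astrocytes, oligodendrocytes and blood, and for 0 of 5 neuron, 0 of 6 pyramidal cell, 0 of 5 interneuron, 0 of 5 choroid plexus and 0 of 5 meninges markers (limma, unadjusted p under 0.05 for 1, 0, 1, 0 and 0). Their part in the members' results was not tested.

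Atp5g2 encodes a form of the c subunit, which makes up the rotating ring of the ATP synthase. Its lowest, median and highest values were 10.37, 10.47 and 10.52 in CC4, 10.39, 10.45 and 10.53 in FC4, 10.34, 10.41 and 10.45 in CC12 and 10.31, 10.37 and 10.44 in FC12. They were 10.37, 10.42 and 10.48 in CC30, 10.39, 10.41 and 10.54 in FC30, 10.39, 10.43 and 10.49 in FC24 and 10.31, 10.45 and 10.58 in RT30. The medians of both 12 h groups were lower than those of both 4 h groups, with overlap. All 3 of its probe sets passed (adjusted p = 0.00723, 0.0128 and 0.0562). Ndufb4, an accessory subunit in the membrane arm of complex I, passed on both of its probe sets (adjusted p = 0.0864 and 0.0366). Its lowest, median and highest values were 10.90, 10.97 and 11.04 in CC4, 10.94, 10.99 and 11.05 in FC4, 10.88, 10.95 and 10.97 in CC12 and 10.83, 10.94 and 11.004 in FC12, so the groups overlapped. Near-identical copies of a gene can share probes, so which copy was measured is uncertain for genes with several probe sets.

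Time of day took a median of 4.38% of the variance of a member over the 54 mice and training 1.14%, while differences between mice of one group took 88.8%. For all probe sets these medians were 4.62%, 0.885% and 89.1%. Time has 1 more degree of freedom than training, which raises its share. The highest share of time was 38.7% for Sdhaf1, followed by 30.5% for Atp5g2, and the highest share of training was 9.68% for Sdhc, a membrane anchor of complex II. The median share of time was 11.4% for the 11 assembly factors and 4.19% for the 11 core subunits.

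**Figure D4:**
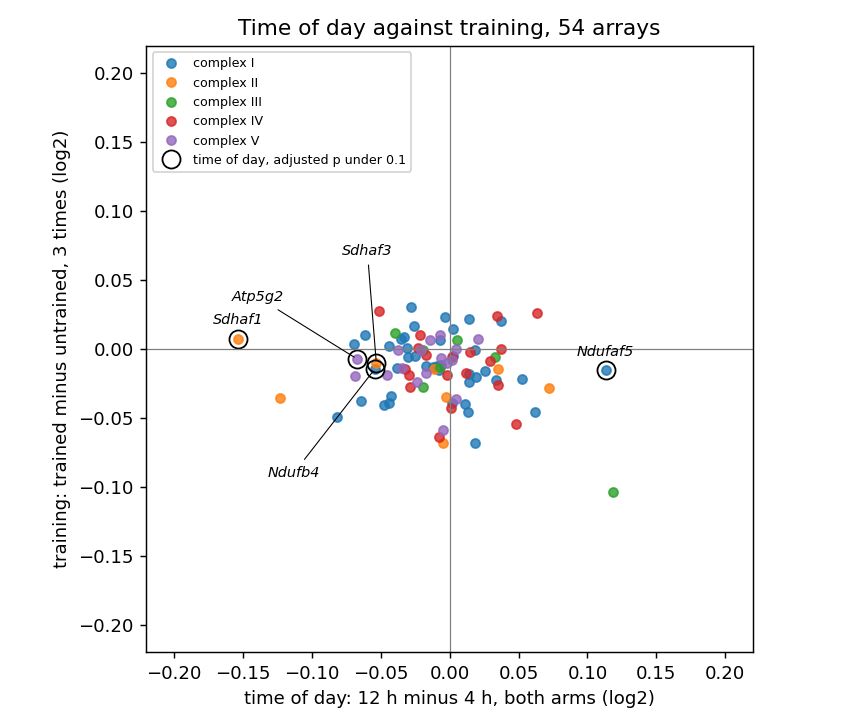
Difference between 12 h and 4 h over both arms (horizontal axis, log2) against the training term over the 3 times (vertical axis, log2) for the 92 genes, from 1 fit over 54 arrays. Points are genes coloured by complex, and rings mark an adjusted p under 0.1 for time of day. Sdhaf1 at -0.15 and Ndufaf5 at 0.11 lie at opposite sides, and 66 of the 92 points lie below 0 for training.

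The training term was below 0 for 66 of the 92 genes (71.7%), beside 53.0% of all probe sets and 57.1% of all genes, with a median of -0.013. In the lists of related genes given further below, the share below 0 ran from 54.2% for the cytosolic ribosome to 81.8% for antioxidant genes. Assembly factors outside the name rule gave 76.5%, so this lean was not particular to the members. Among the members, the smallest p-values were those of Sdhb (-0.07), the ATP synthase subunit Atp5k (-0.06) and Sdhc (-0.03), each with an adjusted p of 0.913.

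Co-variation between mice of one group was weak. Over 4186 pairs of genes the median correlation of deviations from group means across 72 arrays was 0.05, with 60.3% of pairs above 0. The 5th and 95th percentiles were -0.31 and 0.42. It was 0.08 within complex I and complex V, 0.05 within complex IV, 0.04 within complex II, -0.03 within complex III and 0.17 among the 11 assembly factors. Other complexes gave like values, with 0.11 for the cytosolic and for the mitochondrial ribosome and 0.09 for the proteasome. The closest pair was Sdhb and Uqcr11 at 0.87, genes of different complexes. All pairs share the arrays and their normalization, so these values are a description.

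The upstream regions of 4 of the genes called for time of day are shown because time of day was the factor with the most called members. Promoter sequences from RefSeq (GRCm38.p6) were matched for 77 of the 92 members, and each window ran from 250 bases before to 50 after the start of the gene. The bases before the start lie at chr7:30322376-30322625 on the minus strand for Sdhaf1, chr6:6955768-6956017 on the plus strand for Sdhaf3, chr2:140170396-140170645 on the plus strand for Ndufaf5 and chr15:102671048-102671297 on the minus strand for Atp5g2. They are given 5′ to 3′ along the gene, in lower case, with capitals for any of the 4 motifs searched.
Sdhaf1: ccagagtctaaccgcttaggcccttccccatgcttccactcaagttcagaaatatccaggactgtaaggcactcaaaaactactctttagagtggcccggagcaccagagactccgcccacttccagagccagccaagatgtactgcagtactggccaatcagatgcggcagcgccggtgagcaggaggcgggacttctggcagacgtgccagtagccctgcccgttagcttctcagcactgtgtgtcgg
Sdhaf3: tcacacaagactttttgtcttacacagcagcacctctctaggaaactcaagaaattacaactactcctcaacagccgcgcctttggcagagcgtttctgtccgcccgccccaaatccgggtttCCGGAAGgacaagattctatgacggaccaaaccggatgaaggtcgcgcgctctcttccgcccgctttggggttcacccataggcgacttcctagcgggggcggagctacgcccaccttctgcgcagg
Ndufaf5: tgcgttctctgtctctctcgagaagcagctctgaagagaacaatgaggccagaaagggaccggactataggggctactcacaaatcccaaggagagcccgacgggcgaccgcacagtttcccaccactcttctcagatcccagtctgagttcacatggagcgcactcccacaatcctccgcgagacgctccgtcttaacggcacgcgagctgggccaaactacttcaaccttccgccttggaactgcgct
Atp5g2: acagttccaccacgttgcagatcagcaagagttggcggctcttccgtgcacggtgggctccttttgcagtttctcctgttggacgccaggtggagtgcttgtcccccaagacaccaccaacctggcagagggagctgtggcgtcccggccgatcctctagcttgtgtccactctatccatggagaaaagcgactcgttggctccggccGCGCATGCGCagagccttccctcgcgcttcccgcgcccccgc

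The motifs were searched on both strands, and none contains another. The E-box CACGTG, which clock transcription factors bind, lay in the window of 6 of 77 members (7.79%), beside 8.09% of 27025 genes. None of the 10 assembly factors with a window held it. The site of NRF1, a regulator of respiratory genes, searched as its palindrome of 10 bases, lay in 7 members (9.09%), beside 1.07% of all genes. The core of the GABP site, CCGGAAG, lay in 21 members (27.3%), beside 9.93%, and the YY1 site AAGATGGC in 10 (13.0%), beside 3.19%. Of the genes shown, Sdhaf3 holds the GABP letters and Atp5g2 the NRF1 letters before the start, while Sdhaf1 holds GABP letters and Ndufaf5 NRF1 letters only in the bases after it. A match is a run of letters and was not tested as a site.

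Other genes of energy metabolism are given for comparison, from lists made by function or name. Time of day was called in the same fit for 7 of 34 assembly factors outside the name rule, 7 of 21 genes of the citric acid cycle and pyruvate dehydrogenase, 2 of 17 genes of glycolysis and 6 of 21 regulators of mitochondrial biogenesis. It was also called for 1 of 16 other subunits and carriers, 1 of 11 antioxidant genes, 16 of 74 genes of the mitochondrial ribosome, 5 of 83 of the cytosolic ribosome and 4 of 39 of the proteasome. Of all genes, 18.3% were called for time. The lists, in the order given, had 20.6%, 33.3%, 11.8%, 28.6%, 6.25%, 9.09%, 21.6%, 6.02% and 10.3%. Training was called in none of these lists. The share of the oxidative phosphorylation genes, 5 of 92, was near that of the cytosolic ribosome and below that of all genes, without a test of the difference.

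Among the other assembly factors, Cox11, which delivers copper to complex IV, fell by 0.11 from CC4 to CC12 (adjusted p = 0.0949). Lyrm7, which assembles the Rieske protein of complex III, fell by 0.08 from FC4 to FC12 (adjusted p = 0.0772). Idh2, the mitochondrial isocitrate dehydrogenase, rose by 0.18 from CC30 to CC12 (adjusted p = 0.00766). The glucose transporters Slc2a1 and Slc2a3 rose by 0.24 and 0.10 in the same comparison (adjusted p = 7.73e-04 and 0.0943). The genes of the mitochondrial genome were not analysed here.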

How the data were processed

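RNA of 72 mouse hippocampi was hybridised by the authors to an Affymetrix gene array plate, 1 array for each mouse. The deposited values are log2 signals, background corrected, quantile normalized and summarised by the authors with RMA in Affymetrix Power Tools after 2 scans were averaged. The number of arrays limits the precision. Gene symbols came from the platform annotation. The members and gene lists were chosen with earlier results of these data known.

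The study's methods remove a first principal component. Here values were centred for each probe set and the first component over all arrays, which held 17.4% of the variance, was subtracted. The study's methods state a larger share for their first component. Whether the component subtracted here equals the one the study removed was not settled. Limma 3.58.1 (R 4.3.3) was fitted for each of 12 comparisons to the 18 arrays involved, and for time, training and their interaction to 54 arrays. P-values are two-sided and Benjamini-Hochberg adjusted over all 35556 probe sets, and an adjusted p under 0.1 was called. Genes were named if called, or for the 2 smallest p-values of a comparison or the smallest time p-value of a complex, and 14 subunits and isoforms were always named. Genes from other lists and Ndufb4 were picked as examples after their values were seen. The steps were tested on simulated data.

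The 14 other settings tried first covered component removal, limma options, filters, the choice of probe set, the methods' t-test and the replicate block. A 15th, local false discovery rates computed on t statistics instead of z-scores, was added after the counts from z-scores and earlier counts had been seen. That procedure was rewritten here after Efron's method. Summaries and figures used Python with numpy, pandas and matplotlib.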

Additional observations from a re-analysis of the deposited data

Results flagged for a closer look

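A mouse was singled out where its gap to the nearest other mouse of its group of 9 as a share of the group's range exceeded Dixon's 95% critical value. This held in 14 of 208 groups of values, from 20 genes and 6 means over genes, and chance alone would flag about 1 in 20. The values below are on the log2 scale.

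In complex I, Ndufa12 was 8.68 in CC30 replicate 5, with the other mice at 8.42 to 8.55. Ndufs1 was 9.21 in FC24 replicate 2, with the other mice at 8.91 to 9.01. In complex II, Sdha was 10.56 in FC4 replicate 8, with the other mice at 10.66 to 10.73. In complex III, Uqcrc1 was 9.97 in FC12 replicate 3, with the other mice at 10.08 to 10.16. In complex IV, Cox5a was 7.78 in CC4 replicate 2, with the other mice at 7.97 to 8.11. In complex V, Atp5b was 12.12 in CC4 replicate 8, with the other mice at 12.22 to 12.31.

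Among isoforms of other tissues, Cox4i2 was 4.83 in CC4 replicate 8, with the other mice at 5.24 to 5.51. Cox6a2 was 6.89 in RT30 replicate 4, with the other mice at 7.16 to 7.36. Cox7a1 was 5.03 in FC4 replicate 9, with the other mice at 5.17 to 5.31, and also 5.64 in CC12 replicate 1, with the other mice at 5.18 to 5.38. Cox8b was 5.04 in FC24 replicate 1, with the other mice at 4.27 to 4.57. Replicate 8 of CC4, which holds the low Atp5b and Cox4i2 values, is one of the 6 arrays with a component score far from its group.

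Among the means over genes, complex I was 0.048 in CC30 replicate 5, with the other mice at -0.018 to 0.011, the same mouse in which Ndufa12 was high, and 0.081 in CC12 replicate 6, with the other mice at -0.019 to 0.023. Complex III was -0.110 in RT30 replicate 9, with the other mice at -0.012 to 0.059.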

How the results depend on the processing

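Over 15 other settings for the pairwise comparisons and 11 for the fit of time and training, 190 of 213 counts of called members were equal to or within 1.5 times the count given. The counts for CC4 against CC30, for the 5 comparisons of training or retrieval with untrained mice, for FC4 and RT30 against FC24, and for the training and interaction terms were 0 in every setting run. For CC12 against CC30 the count was 0 with local false discovery rates on z-scores or on t statistics. For CC12 against CC4 it was 2 with the t-test of the methods and Benjamini-Hochberg adjustment, 0 with local false discovery rates on z-scores (1 on t statistics) and 0 with the probe set of highest variance. For FC12 against FC4 it was 0 with no component subtracted, 1 with the component as a covariate, 1 without the 6 arrays, 4 with all groups in 1 fit, 4 with the t-test and 0 with both local false discovery rates. For FC12 against FC24 it was 1, Ndufb5, with 2 components subtracted, with an intensity trend, with array weights, without the dimmest probe sets, with 1-symbol probe sets only and with the t-test. Time of day was called for 8 members with 2 components subtracted and for 8 with array weights. With the replicate number as a block, the counts for CC12 against CC30, CC12 against CC4 and FC12 against FC4 were each 0 and the count for time of day stayed at 5. Neither the labels nor the methods say what a replicate number marks. Correlations of same-numbered mice ran from -0.16 to 0.38, with every pair above 0.1 in 0 of 12 comparisons. Their median was above that of other pairs in 9 of 12, and 14 of 72 arrays (19.4%) were most like one of their own number, which 11.1% of the arrays of other groups bear, so a partial pairing remains possible. With its other probe set, Sdhaf1 turned to -0.019 in CC4 against CC30, 0.046 in CC12 against CC4 and 0.0086 from 4 h to 12 h. Of 415 values of named genes, 390 kept direction and side of the threshold, 15 lost the call and 7 gained it. The cause of these differences was not tested. Local false discovery rates on t statistics were chosen after seeing the data. The calls in single comparisons, with adjusted p between 0.0198 and 0.0857, therefore depend on the test and the setting. Arrays give signals over background and not counts, and the 95% interval of a member's fold change reached a median of 0.072 to 0.086 to either side over the 12 comparisons.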
